A study of Caenorhabditis elegans with 14 samples.

Results

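The genes described here are tct-1, which encodes the translationally controlled tumour protein (TCTP), and 3 genes of the ribosomal stalk, rpa-0, rla-1 and rla-2. They are 4 of the 20315 gene models measured for RNA polymerase II (Pol II) occupancy in the nematode Caenorhabditis elegans. They were taken by public gene name: tct-1 because it was among the largest rises of Pol II on feeding, rpa-0 because it is the gene beside it, and rla-1 and rla-2 because they encode the other stalk proteins. The members were thus chosen by the density of Pol II in recovery against arrest, and their values in that contrast are given as a description, with no test. A second P2 gene, C37A2.7 (current symbol rplp-2.1), is no member and was added after its values were seen.

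The stalk is a flexible arm on the large ribosomal subunit. The protein P0, encoded by rpa-0 (current symbol rplp-0), anchors heterodimers of the small acidic proteins P1, encoded by rla-1 (current symbol rplp-1), and P2, encoded by rla-2 (current symbol rplp-2.2). The tails of these proteins share an acidic end that recruits the GTPases of translation, among them the elongation factors. TCTP is a small, abundant protein that is conserved across eukaryotes and, from work in other species, is associated with growth and with elongation factor 1B.

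Pol II was mapped by chromatin immunoprecipitation and sequencing (ChIP-seq) in whole larvae of the wild-type N2 strain, fixed with formaldehyde. Embryos hatched without food and entered L1 arrest, the starvation arrest of the first larval stage, and were fixed at 6 hr or 12 hr of arrest. Recovery larvae were given HB101 bacteria at 12 hr of arrest and were fixed 1 hr later. Antibodies S2 (ab5095, to the serine 2 phosphorylated tail of the largest subunit, a mark of elongating Pol II), 4H8 (ab5046, to the same tail) and 8WG16 (ab817, known to bind mostly its unphosphorylated form) were used. All groups are N2 animals that had been starved, so no group was fed throughout. Both the 12 hr arrest and the recovery group hold 1 library of S2, 1 of 8WG16 and 2 of 4H8. At 6 hr there was 1 S2 column, which carries the title of the first of 2 samples; whether it holds both is not stated. Each recovery library was sequenced on the same flow cell as a 12 hr library of its antibody, which gives 4 pairs, and the antibody cannot be told apart from the flow cell. The input is 1 column, read here as all 4 input samples together, and gives the background of unselected chromatin. The animals are whole, so polymerase on a gene in more cells and more polymerase per cell cannot be told apart.

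Densities are in RPKM, reads scaled to the length of the sequence and to sequencing depth, so that levels of genes of different length can be set side by side, although input density also differs between genes and is given with each member. Depth was between 1322000 and 5863000 reads for the 9 ChIP libraries, lowest for 8WG16, and 11905000 for the input. A member's gene model held between 38 reads (rla-2, 8WG16 in arrest) and 3411 reads (tct-1, 4H8 in recovery), whereas start windows held as few as 1 read. Exact Poisson intervals below cover counting error only, since reads were not identified as single molecules.

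The members lie in compact stretches of the genome (WS190 annotation). On chromosome I, rpa-0 (F25H2.10, I:10567881-10569012, plus strand, 1132 bp) is followed on the same strand after 84 bases by tct-1 (F25H2.11, I:10569097-10570019, 923 bp). Downstream of tct-1, after 48 bases, comes F25H2.12, also on that strand. The gene rla-1 (Y37E3.7, I:2069084-2069589, minus strand) is the shortest member at 506 bp, and rla-2 (Y62E10A.1, IV:13369392-13370260, minus strand) spans 869 bp. All 4 members had another gene model, on either strand, within 100 bp of their downstream end, which for rpa-0 is tct-1 itself. This held for 27 of 78 other genes of cytosolic ribosomal proteins (34.6%) and for 10.6% of all gene models. These shares leave out genes that overlap another model on that side, a further 8 of the 78 and 1875 of all 20314 models.

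tct-1 had a high density in arrest, as it had in the input, and was among the densest genes in the genome after feeding. At 6 hr of arrest its gene density was 105.85 RPKM with S2. At 12 hr it was 103.59 with S2, 94.51 and 86.66 with 4H8 and 41.11 with 8WG16, against an input of 34.53. The 8WG16 library lay lowest, and its Poisson interval of 31.7 to 52.5 RPKM took in the input density. In recovery tct-1 was at 1111 RPKM with S2, 822 and 464.5 with 4H8 and 349 with 8WG16. The recovery libraries all lay above every arrest library. These were ranks 4, 5, 8 and 7 of all gene models, in the order in which the libraries are named, whereas at 12 hr its rank was between 149 (S2) and 573 (8WG16). In the input tct-1 had rank 136, and its density at 12 hr was 1.19 (8WG16) to 3.00 (S2) times the input.

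Per flow cell, tct-1 was 10.7 times denser in recovery with S2, 8.70 and 5.36 times with 4H8, and 8.50 times with 8WG16. The mean of the 4 pairs was 2.93 ± 0.42 (SD, n = 4) on the log2(RPKM + 5) scale, the third highest of 7214 genes tested. The second 4H8 pair gave the smallest ratio of the 4 pairs, for tct-1 as well as for rla-1 and rla-2. Over all genes, limma called 38% in this contrast, 22.9% higher and 15.1% lower (Benjamini-Hochberg adjusted p under 0.05). For all 4 members the gene densities at 12 hr and in recovery did not overlap. Of the 7214 genes 24.7% did not overlap between these states, 14.4% with recovery higher, and since this contrast chose the members nothing is read from their count.

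**Figure D1:**
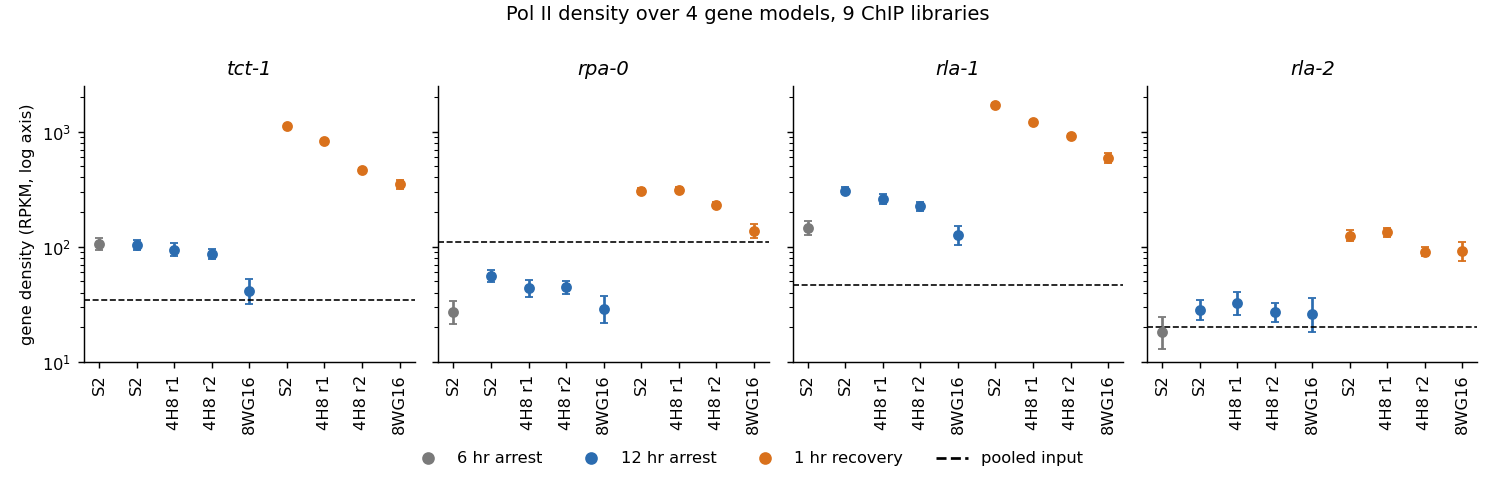
Gene density of the 4 members in each ChIP library (RPKM, log axis), with exact 95% Poisson intervals as bars and the pooled input as a dashed line; r1 and r2 are the 4H8 replicates. The recovery libraries lie above the arrest libraries in each panel, rla-1 and tct-1 reach the highest densities, and rpa-0 lies below its input in every arrest library.

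rpa-0, the gene of the P0 anchor, had the highest input density of all 20315 gene models, at 109.18 RPKM. With antibody its density was below that input throughout arrest. It was 26.95 RPKM at 6 hr with S2, and at 12 hr it was 55.47 with S2, 43.57 and 44.75 with 4H8 and 28.8 with 8WG16. These are between 0.247 and 0.508 times the input. In recovery rpa-0 was at 304 RPKM with S2, 313 and 233 with 4H8 and 138 with 8WG16, between 1.26 and 2.87 times the input. The lowest recovery library, 8WG16, still lay above the highest arrest library, and the ratio of recovery to arrest per flow cell was 4.78 to 7.18 (mean 2.35 ± 0.27 on the log2 scale, SD, n = 4 pairs). Other ribosomal protein genes also had high input, with a median of 41.4 RPKM against 10.96 for all genes, and none of the 78 exceeded rpa-0. What raises the input at rpa-0 was not tested. All libraries share 1 input column, so dividing by it leaves the ratios of recovery to arrest unchanged. On the scale log2(fold enrichment + 0.5) the change of rpa-0 was 1.59. The added 0.5 is about as large as its highest enrichment in arrest, 0.508, and so lowers the change.

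rla-1, the P1 gene, was the densest member in every ChIP library. Its gene density was 147 RPKM at 6 hr with S2. At 12 hr it was 308 with S2, 262 and 225 with 4H8 and 127 with 8WG16, against an input of 46.41. In recovery it was 1721 with S2, 1206 and 920 with 4H8 and 589 with 8WG16. That placed it at ranks 1, 2, 1 and 3 of all gene models, and no other ribosomal protein gene on the list of 78 was denser in any recovery library. It already stood near the top in arrest, between rank 13 (S2) and rank 95 (8WG16) at 12 hr, where at most 2 of the 78 were denser. In the input rla-1 had rank 52, and 31 of the 78 were denser. The ratio of recovery to arrest per flow cell was 4.09 to 5.58, with a mean log2 change of 2.21 ± 0.19 (SD, n = 4 pairs).

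rla-2, the P2 gene, was the least dense member in every ChIP library. Its gene density was 18.22 RPKM at 6 hr with S2, close to an input of 20.13. At 12 hr it was 28.32 with S2, 32.5 and 27.04 with 4H8 and 25.93 with 8WG16. In recovery it was 125 with S2, 134 and 90.78 with 4H8 and 91.48 with 8WG16. The recovery values lay above all arrest values by at least 3.36 times per flow cell and at most 4.40 times (mean 1.77 ± 0.18, SD, n = 4 pairs). In recovery between 54 and 67 of the 78 ribosomal protein genes were denser than rla-2. The other P2 gene, C37A2.7, was at a similar level, from 28.88 to 41.31 RPKM at 12 hr and from 106 to 164 in recovery, with a mean log2 change of 1.88 ± 0.30 (SD, n = 4 pairs).

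The P1 gene was denser than the P2 gene rla-2. The density of rla-1 was 4.88 to 10.9 times that of rla-2 at 12 hr and 6.43 to 13.8 times in recovery, against 2.31 times in the input. The lowest of these ratios in each state came from 8WG16. Against the summed density of rla-2 and the other P2 gene, C37A2.7, rla-1 was 2.25 to 4.43 times denser at 12 hr and 2.99 to 6.16 times in recovery, with 1.06 in the input. tct-1 was denser than its upstream neighbour rpa-0 in all 9 ChIP libraries, by 1.43 to 3.93 times, whereas in the input it had 0.316 times the density of rpa-0.

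The other ribosomal protein genes (78 genes named rpl- or rps- with a number, with ubl-1 and ubq-2) give the setting. This list was taken by public name alone, without a check of each product, and leaves out Y37E3.8 (current symbol rpl-27A). Of the 78, 76 were dense enough to test on feeding, and all 76 were called higher (72 after scaling on chemoreceptor genes), with a median change of 1.83 against 0.083 for all genes. The highest were rps-16 at 2.50, rps-6 at 2.47 and rpl-25.1 at 2.34. tct-1 at 2.93 exceeded every one of them, but it was chosen for its rise in this contrast, so nothing is read from that. rpa-0 at 2.35 fell just above rpl-25.1. rla-2 at 1.77 lay just under the list's median, but just above it under quantile normalization (1.55 against 1.54). With log2(fold enrichment + 0.5) in place of density rpa-0 was at 1.59, rla-2 at 1.63 and the list's median at 1.54. On that scale the added 0.5 weighs more at genes of high input. The smallest rises were those of rpl-24.2 at 0.40, rps-23 at 0.48 and rpl-11.1 at 0.49. rpl-12, whose protein sits at the base of the stalk, rose by 1.24 (adjusted p = 0.00132, limma), lying between 122 and 140 RPKM at 12 hr and between 245 and 425 RPKM in recovery.

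**Figure D2:**
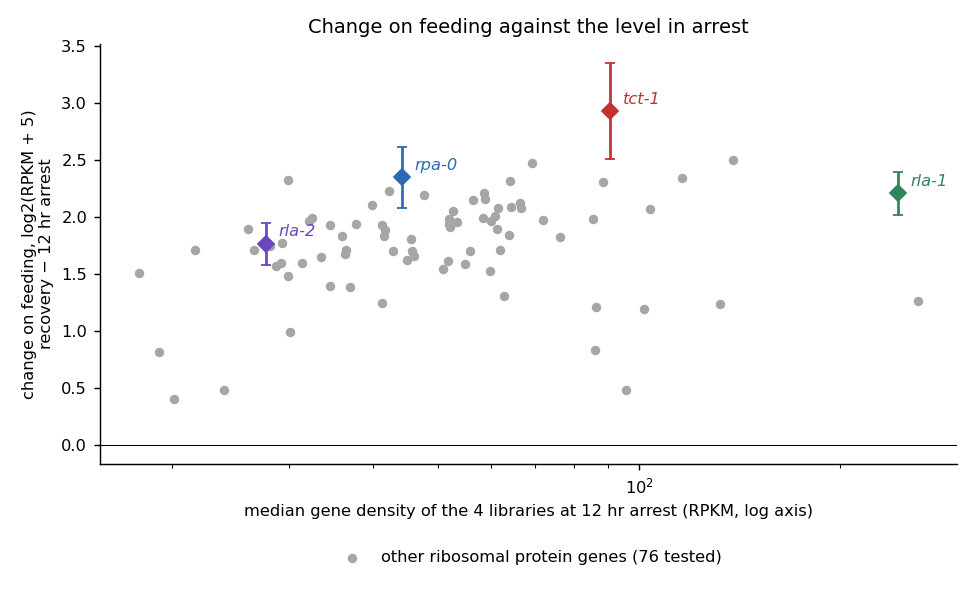
Change on feeding in log2(RPKM + 5) against the median gene density of the 4 libraries at 12 hr of arrest (RPKM, log axis). Diamonds are the members with the SD of the 4 flow-cell pairs as bars, and grey points are the other ribosomal protein genes tested. tct-1, chosen for its rise in this contrast, lies above all grey points, and rla-1 is the densest member in arrest.

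Genes whose products work with the stalk or with TCTP moved unequally. Of 10 such genes 9 were tested, with 7 called higher, rheb-1 lower and efk-1 not called. The eEF1A genes eft-3 and eft-4, whose product delivers aminoacyl-tRNA and whose close similarity makes the split of their reads uncertain, rose by 2.00 and 2.04. eft-2, for the translocase eEF2, rose by 1.79. Of the eEF1B subunit genes, eef-1B.2 (Y41E3.10) rose by 2.24 and eef-1G (F17C11.9) by 1.95, whereas eef-1B.1 (F54H12.6) rose by 0.74. gcn-2, for a kinase of eIF2 that in yeast is activated through the stalk, rose by 0.30, and gcn-1, its partner, was below the density needed for a test. Its density lay between 5.42 and 6.43 RPKM at 12 hr and between 10.75 and 15.21 in recovery. Without a filter on low values gcn-1 was at 0.72 (adjusted p = 0.00934, limma). rheb-1, for the GTPase that activates TOR, was at -0.29 (adjusted p = 0.0381, limma), and efk-1, for the kinase of eEF2, was at 0.03 (adjusted p = 0.827, limma). The call of rheb-1 was lost without a filter on low values (adjusted p = 0.0705, limma) and on leaving out any 1 of the 4H8 libraries (adjusted p = 0.0544 to 0.102, limma). Scaling on chemoreceptor genes moved the median of all genes from 0.083 to -0.11. Under it the calls of eef-1B.1 (0.54, adjusted p = 0.122, limma) and gcn-2 (0.11, adjusted p = 0.57, limma) were lost, whereas efk-1 was at -0.17 and not called. rheb-1 was then at -0.49 (adjusted p = 0.0228, limma). The call of gcn-2 was also lost without the first 4H8 arrest library (0.29) and without the 8WG16 libraries (0.26). At the start window, measured as described below, eft-3, eft-4 and eef-1B.2 were called higher, at 1.99, 1.67 and 1.18, but eft-2, eef-1B.1 and eef-1G were called lower, at -1.29, -1.52 and -1.29. Without a filter on low values the start-window calls of eft-3 (adjusted p = 0.0991, limma) and eef-1B.2 (adjusted p = 0.0567, limma) were lost. Those of eft-4 (adjusted p = 0.0492, limma) and of the genes called lower (adjusted p = 0.0365 to 0.0396, limma) were kept.

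The start of each gene was measured apart, in a window over the most upstream start site. The nominal window is 200 bp, but the steps of the densities gave 142 bp for tct-1, 106 bp for rla-1 and 103 bp for rla-2, with 200 bp for rpa-0. For tct-1 this length equals that of a window cut midway to rpa-0, as was found in 92.0% of the 1294 windows with an upstream neighbour within 200 bp. Which bases the windows of rla-1 and rla-2 cover is not stated. Over all genes tested on feeding, 6.99% of start windows were called higher and 21.7% lower (limma), against 63 higher and 5 lower of 74 ribosomal protein genes tested. Without a filter on low values 39 of 78 ribosomal protein genes were called higher and 2 lower, with 164 higher and 505 lower of all 20315 genes.

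At tct-1 the start density was 70.63 RPKM at 6 hr with S2. At 12 hr it was 77.48 with S2, 55.33 and 65.22 with 4H8 and 25.02 with 8WG16, where the window held 6 reads. In recovery it was 406 with S2, 257 and 131 with 4H8 and 202 with 8WG16. Every recovery value was above every arrest value, and the log2 change was smaller at the start than over the whole gene, at 2.04 ± 0.78 (SD, n = 4 pairs). The ratio of start density to gene density was 0.585 to 0.753 in the arrest libraries. In recovery it was 0.366 with S2 and 0.312 and 0.282 with 4H8, but 0.579 with 8WG16, where it remained close to the 0.609 of arrest. The input ratio of tct-1 was 0.274.

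At rla-1 the start density went from 234 to 842 RPKM with S2, from 232 to 751 and from 152 to 479 with 4H8, and from 55.87 to 328 with 8WG16. This is a mean log2 change of 1.89 ± 0.38 (SD, n = 4 pairs). Its ratio of start to gene density fell between 0.441 and 0.886 at 12 hr and between 0.489 and 0.622 in recovery, so the ranges overlapped. At rla-2, whose start window held between 3 and 32 reads in the ChIP libraries, the mean log2 change of the start density was 0.96 ± 0.55 (SD, n = 4 pairs), and the ratio was 0.482 to 0.928 at 12 hr and 0.328 to 0.517 in recovery.

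The start window of rpa-0 was below its input of 22.68 RPKM in all arrest libraries and above it in recovery with 4H8 and 8WG16 but not with S2. It was at 15.43 RPKM with S2 at 6 hr. It was at 22.24 RPKM with S2 at 12 hr, 8.93 and 9.69 with 4H8, and 2.96 with 8WG16, which was 1 read. In recovery it was at 21.17 with S2, 50.01 and 34.96 with 4H8 and 49.16 with 8WG16. The mean log2 change was 1.53 ± 1.19 (SD, n = 4 pairs), with ratios of recovery to arrest of 5.60 and 3.61 with 4H8, 16.6 with 8WG16 and 0.952 with S2. The states overlapped because of the S2 pair, although the S2 density over the whole gene went from 55.47 to 304 RPKM. In recovery the ratio of start to gene density at rpa-0 was 0.0697 with S2, 0.160 and 0.150 with 4H8 and 0.357 with 8WG16. The median ratio of the other ribosomal protein genes was 0.296, 0.348, 0.335 and 0.471 in those libraries. The ratio of rpa-0 was already low in the input, at 0.208 against a median of 0.579. With start and gene density each divided by input, the ratio of rpa-0 in recovery was 0.335 with S2, 0.769 and 0.724 with 4H8 and 1.72 with 8WG16.

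**Figure D3:**
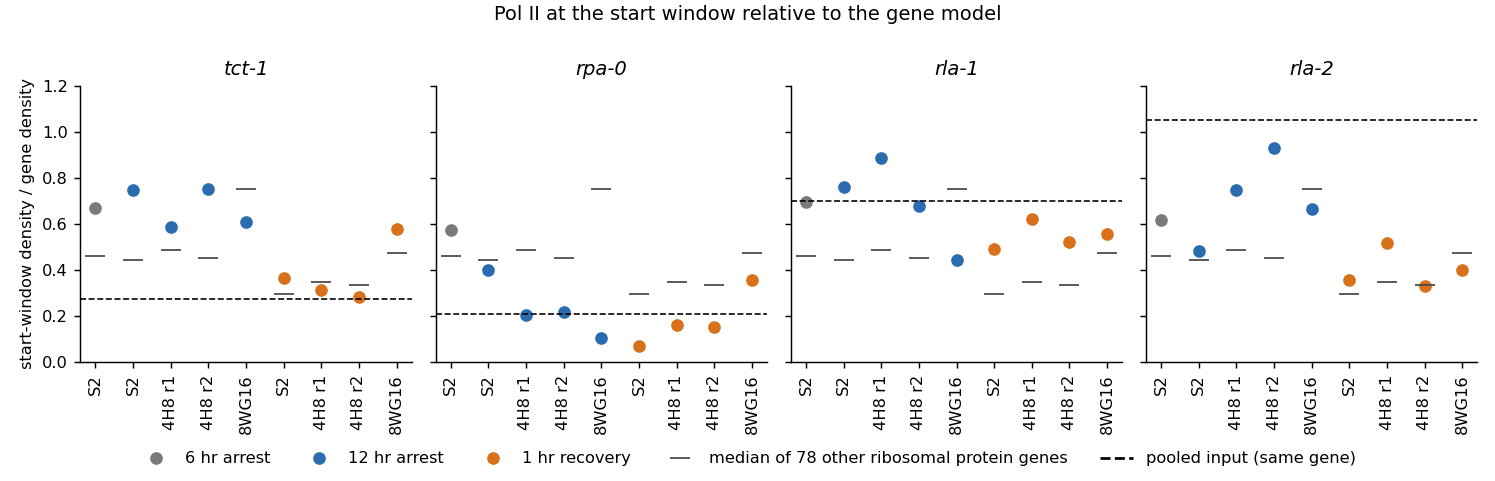
Density of the start window divided by the density of the gene model in each library, with the median of the 78 other ribosomal protein genes as a short bar and the gene's own pooled input as a dashed line. The ratio of tct-1 is lower in recovery than at 12 hr with S2 and 4H8, and rpa-0 lies below the bar in all libraries but S2 at 6 hr. In the input rpa-0 is also low, at 0.208 against a median of 0.579 for the 78.

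The genes just downstream of the members were denser in recovery as well. F25H2.12, 48 bases beyond tct-1, went from 24.11 to 127 RPKM with S2, from 19.76 to 89.02 and 15.1 to 45.89 with 4H8, and from 11.03 to 43.1 with 8WG16 (1.76 ± 0.21 SE, adjusted p = 0.000387, limma). Its density was at most 0.268 times that of tct-1. The start window of F25H2.12 was 2.55 to 5.20 times denser than the gene, against 1.73 times in the input. That window lies beside the end of tct-1, and reads near this junction cannot be assigned to either gene. arl-13, which encodes a small GTPase of cilia, ends 32 bases from the end of rla-1 on the other strand and spans 3301 bp. Its gene density rose by 2.23 ± 0.19 (SE, adjusted p = 7.53e-05, limma), whereas its own start window, at the far end from rla-1, was at -0.13 ± 0.25 (adjusted p = 0.734, limma; 0.28 under quantile normalization, also not called). The ratio of start to gene density at arl-13 was 4.80 to 5.17 at 12 hr and 0.635 to 0.912 in recovery, against 1.42 in the input.

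As with rpa-0 and tct-1, the gene downstream of rla-2 was the denser one. agt-1, 6 bases beyond rla-2 on the same strand, was denser than rla-2 in all 9 ChIP libraries, by 1.38 to 3.27 times, and less dense in the input (0.771 times). It rose by 1.92 ± 0.18 (SE, adjusted p = 0.000115, limma), and its start window, of 101 bp, was denser than the whole of rla-2 in 9 of 9 libraries. Reads near such a junction cannot be assigned to either gene from these tables.

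Upstream, pas-5, a proteasome subunit gene 591 bases before rpa-0, was at 0.23 ± 0.10 (SE, adjusted p = 0.0981, limma). The upstream neighbour of rla-2, Y62E10A.2 (current symbol popl-7), on the other strand, was at 0.24 ± 0.12 (SE, adjusted p = 0.155, limma), whereas its start window fell by 0.98 ± 0.28 (SE, adjusted p = 0.0063, limma, and 0.0739 without a filter on low values). Y37E3.8 (current symbol rpl-27A), which ends 90 bases before rla-1 on the same strand, rose by 1.91 ± 0.15 (SE, adjusted p = 5.88e-05, limma).

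**Figure D4:**
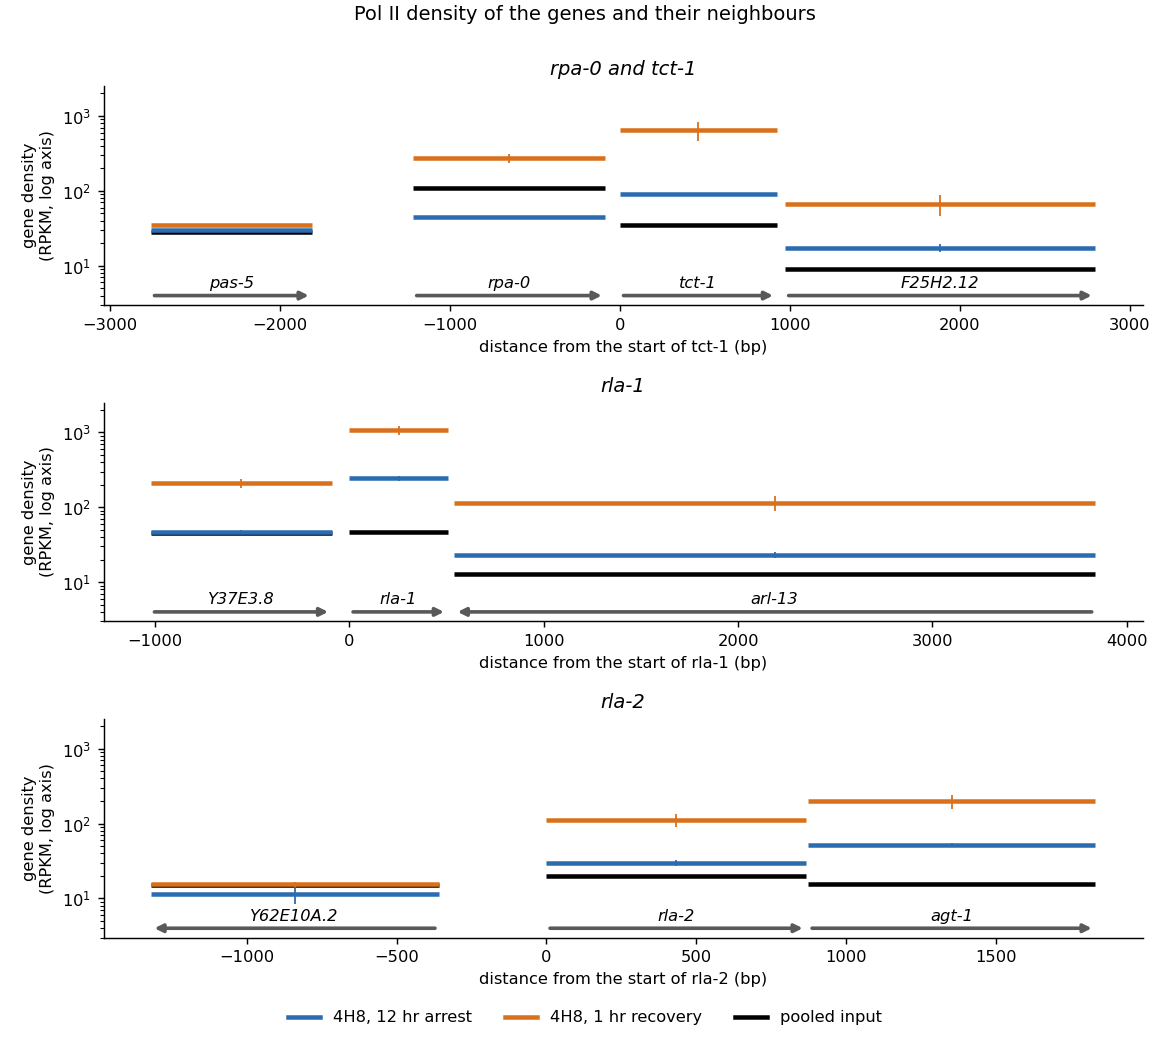
Mean gene density with 4H8 (n = 2 per state, thin bars span both replicates) and the pooled input (RPKM, log axis) over each gene model, against the distance from the start of tct-1, rla-1 or rla-2 in bp. Arrows give the direction of transcription; F25H2.12, arl-13 and agt-1, downstream of members, are higher in recovery, and pas-5 and Y62E10A.2 are not called.

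Contrasts other than the one that chose the members were tested over all genes. They share libraries with the feeding contrast, so they are not separate data. In early against late arrest, S2 at 12 hr against S2 at 6 hr, limma called 0 of 7240 genes (0%), with 500 at an unadjusted p under 0.05. tct-1 differed by -0.03 ± 0.48 (adjusted p = 0.996, limma; 95% interval -1.20 to 1.14). The stalk genes were higher at 12 hr in the values but were not called, with rla-1 at 1.05 ± 0.39 (0.09 to 2.00) and rpa-0 at 0.92 ± 0.36 (0.05 to 1.79), each at adjusted p = 0.713, and rla-2 at 0.52 ± 0.36 (-0.35 to 1.39, adjusted p = 0.844). The median of the 76 ribosomal protein genes tested was 0.61 against 0.024 for all genes, and none of the 76 was called. Each state had 1 column, assumed to vary like the 4H8 replicates, and the 12 hr library is also part of the feeding contrast. With the 4H8 flow cell as a replicate block 157 genes were called, none of them a member.

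Between antibodies over both states, S2 against 4H8 gave 0 of 7214 calls (0%, limma), with 1377 genes at an unadjusted p under 0.05. tct-1 was higher with S2 by 0.51 ± 0.26 (95% interval -0.09 to 1.12, adjusted p = 0.315, limma) and rla-1 by 0.52 ± 0.20 (0.06 to 0.99, adjusted p = 0.233, limma). rpa-0 and rla-2 were at 0.23 ± 0.19 and 0.06 ± 0.19 (adjusted p = 0.509 and 0.885, limma). The median of all genes was 0.082.

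8WG16 against 4H8 gave 561 calls of 7214 (7.78%), with 1.37% of all genes higher and 6.4% lower with 8WG16. rla-1 fell below 4H8 by 0.87 ± 0.20 (adjusted p = 0.0449, limma) and rpa-0 by 0.74 ± 0.19 (adjusted p = 0.0492, limma). tct-1 was at -0.93 ± 0.26 (adjusted p = 0.0623, limma), and rla-2 was at -0.21 ± 0.19 (adjusted p = 0.461, limma; 95% interval -0.64 to 0.22). Of the 76 ribosomal protein genes 5 were called lower, with a median of -0.46 against -0.11 for all genes. Both members' calls were lost without either 4H8 arrest library or without the first 4H8 recovery library, each of which left 0 calls over all genes, whereas leaving out the second 4H8 recovery library gave 1486 calls and an adjusted p of 0.0157 for tct-1. With the flow cell as a replicate block 965 genes were called, and tct-1 was among them (adjusted p = 0.0434, limma).

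**Figure D5:**
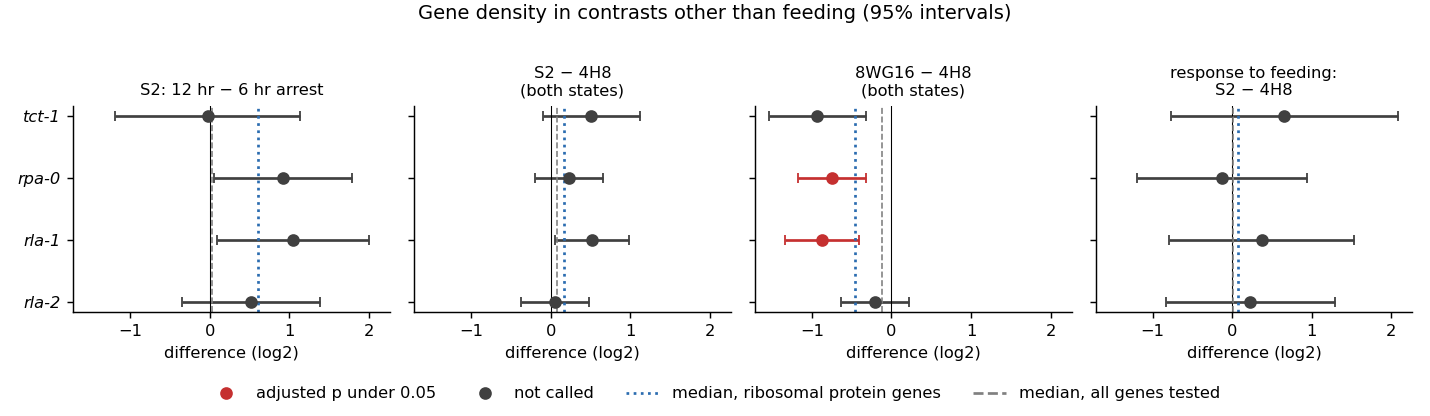
Difference in gene density, log2(RPKM + 5), with 95% intervals of the limma fits, for the 4 members in contrasts other than feeding, which share libraries with it. Vertical lines mark the median of the ribosomal protein genes and of all genes tested. Only rpa-0 and rla-1 in 8WG16 against 4H8 pass the threshold.

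The change on feeding was also compared between S2 and 4H8. The difference was 0.65 ± 0.59 for tct-1 (95% interval -0.78 to 2.08), -0.13 ± 0.44 for rpa-0 (-1.20 to 0.94), 0.37 ± 0.48 for rla-1 (-0.80 to 1.53) and 0.23 ± 0.44 for rla-2 (-0.84 to 1.29), each with an adjusted p of 1.00 (limma). Over all genes 2 of 7240 were called (0.0276%; 0.0138% higher and 0.0138% lower), and 29 with the replicate block, none of them a member. With 1 S2 library per state the intervals are wide, and differences within them remain possible.

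Across the 9 ChIP libraries the members' log2(RPKM + 5) values ran closely together, with Pearson r between 0.94 (tct-1 and rla-2) and 0.99 (rpa-0 and rla-1). These libraries fall into arrest and recovery, and the values share that split as well as library depth, so r is a description only. Among 7236 genes, those most like rpa-0 were rpl-4, rpl-5, rps-6, rpl-13 and rpl-10 (r between 0.997 and 0.999), and those most like rla-2 were rps-22, rps-7, rpl-22, rpl-11.2 and rps-25 (0.992 to 0.997). All 10 encode ribosomal proteins. The genes most like rla-1 were C04F12.5, rpl-32, eft-3, rps-29 and ins-17 (0.991 to 0.994). The genes most like tct-1 were Y24D9A.8 (current symbol tald-1), arl-13, T07A9.14, lgc-31 and T01C3.11 (0.993 to 0.997), of which none is on the ribosomal protein list and arl-13 is the downstream neighbour of rla-1. Of the 76 ribosomal protein genes, 42 had an r above 0.95 with tct-1, 66 with rpa-0, 59 with rla-1 and 63 with rla-2, against 2.03% to 3.39% of all genes compared.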

How the data were processed

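The members and gene lists were chosen with earlier results of these data known. Per the file headers, the authors deposited read density in RPKM per gene model and per start window (TSS density), fold enrichment over input as a ratio, 5' bias (the ratio of both enrichments, reproduced here within 0.001 in 100% of values) and WS190 coordinates. The aligner is not given in the sources used here. Current symbols come from the RefSeq WBcel235 table, which matched 19706 gene models and from which no coordinates were taken. Depth was recovered from the steps of low densities: 90.2% to 99.1% of gene densities and 90.4% to 92.0% of TSS densities in the ChIP libraries were whole reads within 0.1 read.

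Values were analysed as log2(RPKM + 5), which understates changes of low genes, for genes with a mean of at least 10 RPKM. limma 3.58.1 in R 4.3.3 (trend, two-sided) was fitted to the 8 libraries of 12 hr arrest and recovery with antibody as a term, and to all 9 ChIP libraries in 7 groups for S2 at 12 hr against 6 hr and for S2 minus 4H8. p-values were adjusted by Benjamini-Hochberg over all genes tested, with a threshold of 0.05. Spread is shared over genes. In the fits to 8 libraries the prior had 4.34 degrees of freedom for gene density and 43.8 for TSS density, beside 4 residual ones. In the fits to 9 libraries it had 4.26, beside 2 residual ones. The fits of gene density were tested on simulated data. The named genes are the members, the nearest gene on each side, the partner list, the 3 highest and 3 lowest other ribosomal protein genes, rpl-12, and the 5 genes most like each member. The 4H8 replicate numbers are shared by libraries of 1 flow cell, per the labels, and deviations of same-numbered libraries from their group means correlated with r = 0.334 over 7240 genes. Alternatives were another pseudocount, no filter, quantile normalization, scaling on 1156 chemoreceptor genes, fold enrichment as log2(enrichment + 0.5), the replicate block and leaving out libraries. The input and 6 hr columns could not be divided into their samples. Python 3.11.15, pandas 2.3.3, numpy 2.4.6, scipy 1.17.1 and matplotlib 3.10.9 were used.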

Additional observations from a re-analysis of the deposited data

How the results depend on the processing

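The rise of each member on feeding kept its direction under all alternatives, from 2.62 to 3.14 for tct-1, 1.59 to 2.45 for rpa-0, 2.01 to 2.31 for rla-1 and 1.55 to 1.90 for rla-2 in gene density. Genes called in that contrast were between 1950 and 3158 against 2743. Higher and lower calls were 1653 and 1090, but 1239 and 1501 under quantile normalization and 709 and 1492 after scaling on chemoreceptor genes. For TSS density 1956 were called, 669 without a filter on low values, where more genes are tested, and higher and lower calls were 476 and 1480, or 648 and 1027 under quantile normalization. With the replicate block the calls were 3158 (gene density on feeding), 2018 (TSS density), 157 (S2 at 12 hr against 6 hr), 0 (S2 against 4H8), 965 (8WG16 against 4H8) and 29 (S2 minus 4H8 in response). In S2 at 12 hr against 6 hr, 0 genes were called, but 2 with a pseudocount of 1, 4 without a filter, 34 after chemoreceptor scaling, 60 with fold enrichment, and 0 to 73 on leaving out a 4H8 library. S2 against 4H8 gave 0 calls under every alternative run. In 8WG16 against 4H8 the calls were 561, but 0 without a filter, 2603 after chemoreceptor scaling, 857 with fold enrichment, and 0 to 1486 on leaving out a 4H8 library. In the response of S2 minus 4H8 they were 2, but 1 under quantile normalization, 22 after chemoreceptor scaling, and 0 to 48 on leaving out a 4H8 library. The call of rla-1 in 8WG16 against 4H8 was lost under 7 of 10 alternatives and that of rpa-0 under 5, and tct-1 was called under 3. Directions reversed, none of them called: tct-1 at 12 hr against 6 hr was 0.16 after chemoreceptor scaling; rla-2 in S2 against 4H8 was -0.14 under quantile normalization and -0.057 without the second 4H8 recovery library; rla-2 in 8WG16 against 4H8 was 0.10 under quantile normalization; and in the response of S2 minus 4H8, rpa-0 was 0.042 after chemoreceptor scaling and -0.34 to 0.080 on leaving out a 4H8 library (above 0 without the first recovery library), rla-1 was -0.33 under quantile normalization, and rla-2 was -0.041 to 0.49 on leaving out a 4H8 library (below 0 without the second recovery library). The cause of these shifts was not tested. Start windows of rpa-0 and rla-2 held few reads in arrest, which limits their ratios.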
